A study of Homo sapiens with 4 samples.

Results

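The keratins examined here are 6 genes, KRT7, KRT8, KRT18, KRT19, KRT80 and KRT81. They were chosen by name, with earlier results of these data known. They were followed in A549 cells, an established line from a human lung adenocarcinoma, transfected with a miR-509-3p mimic or with negative control mimics. RNA was taken 24 hours after transfection and each group held 2 Illumina bead arrays. Per the labels, cells of both groups were grown in RPMI-1640 with fetal bovine serum and transfected with Lipofectamine RNAiMAX, and the mimic is the one difference the labels give. A mimic is a synthetic double-stranded RNA that supplies the mature microRNA from outside the cell, and no sample without transfection was analysed. Separate cultures are not stated for the 2 arrays of a group, so the p-values cover the spread of these arrays alone, and that spread may be technical.

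Of the 6 genes, 5 were paired with at least 1 of the probes by the platform annotation, through 7 probes in all. A probe entered the tests when its detection p-value, the chance of such a signal from negative control beads, was under 0.01 on at least 2 arrays. By that rule 5 keratin probes of 4 genes (KRT7, KRT8, KRT19 and KRT80) were tested, among 10239 genes in the same fit. KRT18 had 2 probes close to background and is described without a test. The annotation pairs no probe with KRT81, a keratin known from hair, and it was not analysed here.

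Keratins are the intermediate filament proteins of epithelial cells. Each filament is built from pairs of a type I and a type II keratin, so that a cell needs both kinds. KRT8 (type II) and KRT18 (type I) are the first pair made in simple epithelia such as those of lung, gut and liver, KRT7 (type II) and KRT19 (type I) accompany them in ducts, airways and many adenocarcinomas, and KRT80 is a type II keratin found near desmosomes and at the cell margin. The filaments end at desmosomes, the junctions that hold neighbouring cells together, and give the sheet its mechanical strength.

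A microRNA lowers transcripts that pair with its seed, bases 2 to 8 of the mature strand. The sequence is shown because it is the only agent that differs between the groups, with the seed in capitals. RefSeq (GRCh38.p14) gives 22 bases, written 5′ to 3′ and encoded by 3 gene copies on chromosome X.
miR-509-3p: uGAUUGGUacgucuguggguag
Whether any keratin transcript pairs with this seed was not tested.

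The arrays were alike in brightness. Their median signals lay between 202 and 207 and their highest signals between 65551 and 66771, and 33.7% to 34.7% of probes were detected. Among markers of A549 cells, 4 of 6 were tested (AKR1B10, AKR1C2, ALDH1A1 and ALDH3A1), all with group means of log2 15.76 or more, so they were present but close to the highest signals, where a change could not be read. Markers of lung lineage (5 with a named probe), of basal or squamous cells (3 with a named probe, of 4 listed) and of endothelium (4 with a named probe) did not reach the detection rule. Of 6 fibroblast markers only COL1A1 was tested, at log2 6.82 and 6.83 in the 2 groups.

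With the mimic, KRT80 and KRT7 fell to about the same extent, KRT8 was lower by a smaller amount that did not pass the test, and KRT19 was slightly higher and did not pass. Of the 4 tested keratins, 2 were called lower and 0 higher at an adjusted p below 0.05 (limma, with Benjamini-Hochberg adjustment over all genes tested). KRT8 was under 0.05 only before adjustment (limma unadjusted p = 0.0215). More of all genes pass before adjustment than after it, by a share not computed here. Over all genes, 38.0% were called at the adjusted threshold, 17.8% lower and 20.1% higher, so a call by itself is common in this comparison. All 4 keratins had groups that did not overlap, as did 72.9% of all genes. The median log2 fold change was -0.61 over the 4 keratins and 0.04 over all genes tested. In bulk RNA, fewer keratin-bearing cells and less keratin RNA per cell cannot be told apart.

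**Figure D1:**
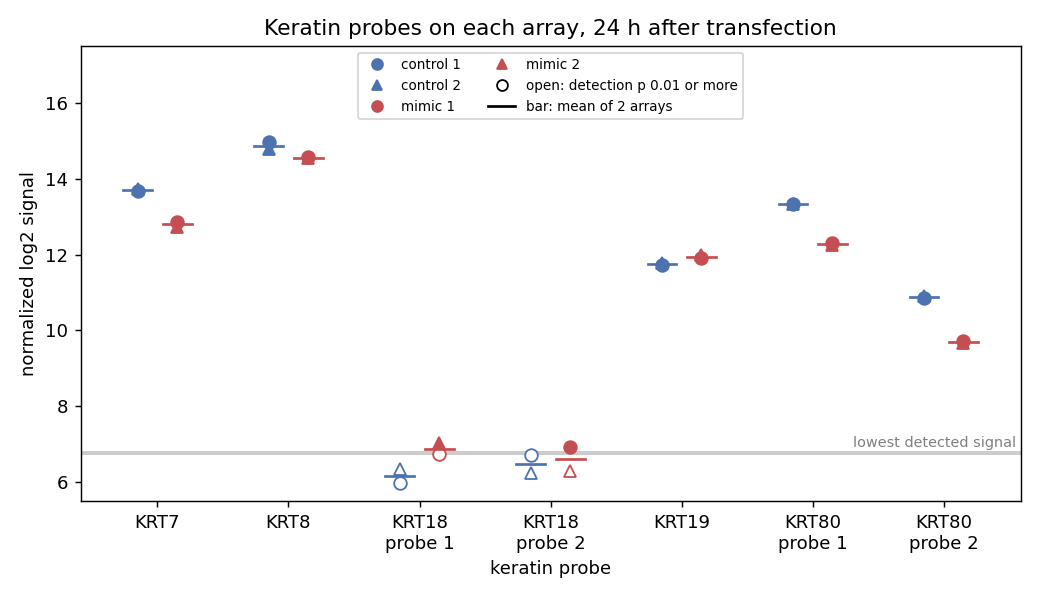
Normalized log2 signal (vertical axis) of the 7 keratin probes (horizontal axis) on each of the 4 arrays, with the mean of each group of 2 as a bar, open symbols where the detection p was 0.01 or more, and the range of the lowest detected signal of each array in grey. KRT7 and both KRT80 probes sit lower on both mimic arrays, KRT8 differs by -0.31, KRT19 by 0.19, and the KRT18 probes lie around the lowest detected signal.

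KRT80 was read by 2 tested probes. The brighter one had a deposited signal of 10220 and 11185 on control 1 and control 2 and of 4910 and 5144 on mimic 1 and mimic 2, with a detection p of 0 on each array. Both mimic arrays were far below both control arrays. On the normalized log2 scale KRT80 fell from 13.34 ± 0.0044 to 12.29 ± 0.04 (SD, n = 2 each), a change of -1.05 ± 0.07 (SE), or 2.07-fold lower (95% interval of the log2 change -1.24 to -0.86, limma adjusted p = 0.00173 after Benjamini-Hochberg). Its dimmer probe read 1973 and 2186 on the control arrays and 950.1 and 982.4 on the mimic arrays, again with a detection p of 0 throughout. That probe fell by 1.18 ± 0.08 (SE) on the log2 scale, 2.26-fold, and passed when adjusted over the 16561 tested probes (limma adjusted p = 0.00296, Benjamini-Hochberg). Of those probes 29.7% were called, 14.5% lower. Both KRT80 probes thus gave a fall of about the same size.

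KRT7, a marker used to tell lung from gut adenocarcinoma, was read by 1 probe. The deposited values were 12863 and 14505 for the control arrays and 7016 and 7113 on the mimic arrays, with a detection p of 0 on all 4. The mimic arrays lay close together and well below both controls. The normalized log2 signal fell from 13.70 ± 0.04 to 12.80 ± 0.08 (SD, n = 2 each), a change of -0.91 ± 0.08 (SE), or 1.88-fold lower (95% interval of the log2 change -1.12 to -0.70, limma adjusted p = 0.00281, Benjamini-Hochberg).

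KRT8 is the type II keratin of every simple epithelium. Its probe gave deposited signals of 31896 and 30004 on the control arrays and 23021 and 24005 on the mimic arrays, all with a detection p of 0 and all under the highest signals on the arrays. Both mimic values were below both control values. The log2 signal was 14.87 ± 0.13 in the controls and 14.56 ± 0.02 with the mimic (SD, n = 2 each), a difference of -0.31 ± 0.09 (SE), or 1.24-fold lower (95% interval of the log2 change -0.56 to -0.07). This missed the threshold (limma adjusted p = 0.0546, Benjamini-Hochberg). It passed in 6 of 14 alternative settings, among them the authors' processed values (-0.31, limma adjusted p = 0.0225, Benjamini-Hochberg) and the values without control 2, and not in the others. Without control 1 the difference was -0.22, and without control 2 it was -0.41.

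KRT19, the smallest type I keratin, was the only tested type I member. The deposited values were 3497 and 3871 for the control arrays and 3691 and 4236 on the mimic arrays, with a detection p of 0 on each, and in this unit the groups overlapped. After normalization both mimic values were above both control values. The log2 signal was 11.75 ± 0.04 and 11.94 ± 0.05 (SD, n = 2 each), a difference of 0.19 ± 0.07 (SE), 1.14-fold higher, with a 95% interval of the log2 change from -0.0072 to 0.38. It did not pass (limma adjusted p = 0.110, Benjamini-Hochberg). The interval leaves room for a rise of up to 0.38 but holds no fall of the size seen for KRT7 or KRT80.

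KRT18, the partner of KRT8 in simple epithelia, was at or near background by both of its named probes. Probe 1 had signals of 192 and 225 on the control arrays and 256 and 285 on the mimic arrays, with detection p-values of 0.248, 0.0584, 0.0104 and 0.0013. Probe 2 had 251 and 216 on the control arrays and 271 and 223 on the mimic arrays, with detection p-values of 0.0182, 0.0883, 0.0039 and 0.0896. Each probe was detected on 1 mimic array and on no control array, so the control level is only a bound. The lowest detected signals of the control arrays averaged log2 6.78. With 1 of 2 mimic arrays also undetected for each probe, no fold is given for either. By these probes KRT18 is not shown to be a keratin of these cells, so they do not bear out its place in the set. Signals this low do not show that the gene is silent either, since how well the probes report KRT18 was not tested. RefSeq names 68 pseudogenes of KRT18, 52 of KRT8 and 5 of KRT19, and transcripts of near-identical copies could bind these probes, so the values of these 3 genes are uncertain in that respect. None are named for KRT7, KRT80 or KRT81.

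**Figure D2:**
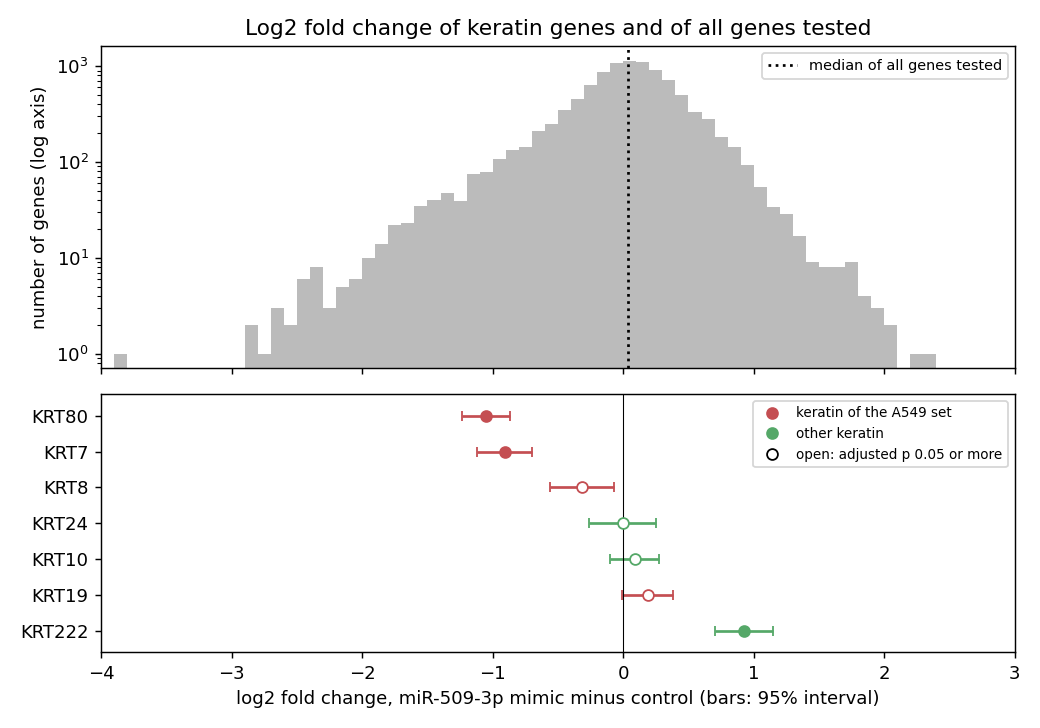
Log2 fold change (mimic minus control, horizontal axis) of all 10239 genes tested as a histogram with a log axis of gene numbers (upper panel), and of each tested keratin with its 95% interval (lower panel, red for KRT7, KRT8, KRT19 and KRT80, green for the other keratins). KRT80 at -1.05 and KRT7 at -0.91 lie in the lower part of the distribution, and KRT222 at 0.92 lies in the upper part.

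The members changed unequally within each array. The log2 difference between KRT7 and KRT8 was -1.29 and -1.04 on the control arrays and -1.71 and -1.80 on the mimic arrays, so KRT7 moved 1.51-fold further down. Between KRT8 and KRT80 the difference was 1.62 and 1.44 on the control arrays and 2.25 and 2.28 on the mimic arrays, an unequal change of 1.66-fold. The change was most equal for KRT7 and KRT80, whose difference went from 0.33 and 0.40 on the control arrays to 0.54 and 0.48 on the mimic arrays, which is 1.10-fold. It was least equal for KRT19 and KRT80, whose difference went from -1.61 and -1.56 to -0.42 and -0.28, which is 2.36-fold. With 2 arrays against 2 the exact two-sided permutation test of a pair cannot go below p = 0.33, and no other test of a pair was run, so the 6 pairs are given as values.

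KRT80 and KRT7 are neighbours. In the gene order of GRCh38.p14, 27 protein-coding genes run from KRT80 to KRT18 on chromosome 12 and all 27 are keratins, the type II cluster with KRT18 at its end. KRT80 and KRT7 stand next to each other at one end and KRT8 and KRT18 at the other, while KRT19 is on chromosome 17. Of the 27 genes, 22 had a named probe and 3 were tested, namely KRT80, KRT7 and KRT8. The 2 that were called lower are the first 2 of the row, and KRT8, near its other end, was at -0.31 and did not pass. Whether position and change go together was not tested. The genes just outside were looked up after the values had been seen. Of these, SMIM41, TAMALIN, NR4A1 and SOAT2 did not enter the test. ACVR1B and ATG101, on the KRT80 side, had log2 fold changes of 0.16 ± 0.12 and -0.12 ± 0.10 (SE) and did not pass. On the KRT18 side EIF4B (0.23 ± 0.07), TNS2 (-0.0087 ± 0.08) and IGFBP6 (-0.21 ± 0.10) did not pass either, while SPRYD3 rose by 1.04 ± 0.07.

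Of 44 other keratin genes with a named probe, only KRT10, KRT24 and KRT222 were tested, and the rest did not reach the detection rule. KRT222, which encodes a short keratin-like protein, rose. It read log2 8.71 and 8.57 on the control arrays and 9.59 and 9.53 on the mimic arrays, so the groups stood well apart. The rise was 0.92 ± 0.08 (SE), 1.90-fold (limma adjusted p = 0.00292, Benjamini-Hochberg). KRT10, the type I keratin of upper epidermis, read log2 13.16 and 13.23 on the control arrays and 13.30 and 13.27 on the mimic arrays, a difference of 0.09 ± 0.07 that did not pass. KRT24, another type I keratin, read 9.63 and 9.73 against 9.77 and 9.58, and its groups overlapped (-0.0046 ± 0.10). KRT5 and KRT14, the pair of basal cells, were not detected by this rule. KRT4, a keratin of squamous mucosa, had signals of 256 and 269 on the control arrays and 196 and 198 on the mimic arrays, with detection p-values of 0.0143, 0.0013, 0.268 and 0.252. It entered the test only with the detection limit at 0.05, through the control group alone, so no fold is given.

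Other intermediate filament genes moved in both directions. Of 8 tested out of 15 listed, 3 fell, 1 rose and 4 did not pass (50.0% called, against 38.0% of all genes), with a median log2 fold change of -0.08. VIM, vimentin, the filament of mesenchymal cells that A549 cells also carry, read log2 14.68 and 14.88 on the control arrays and 14.34 on each mimic array. It fell by 0.44 ± 0.09 (SE), and its second probe fell by 0.44 as well. The VIM call was lost without control 2, mimic 1 or mimic 2, and with no filter on dim probes. INA and BFSP1, known from neurons and from the lens, fell by 0.73 ± 0.08 and 0.74 ± 0.09. BFSP1 read log2 7.29 and 7.18 on the mimic arrays, close to background. PRPH, a filament of peripheral neurons, rose by 0.86 ± 0.16 from log2 7.01 and 7.44 to 8.06 and 8.10, close to background in the controls, and its call was lost without either mimic array. The nuclear lamin genes LMNA, LMNB1 and LMNB2 did not pass.

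Desmosome and plakin genes anchor keratin filaments. Of 15 tested out of 21 listed, 3 rose, 0 fell and 12 did not pass (limma), with a median of 0.08. In all 20.0% were called, against 38.0% of all genes. The share that rose is near that of all genes called higher, 20.1%, while 17.8% of all genes were called lower. At an unadjusted limma p under 0.05, 2 were lower (PKP4 and ITGB4) and 3 higher. More of all genes meet that threshold than the adjusted one, by a share not computed. PKP4 and ITGB4 were both called lower in 2 of the alternative settings, without background correction and with an intensity trend in the variance. Those settings also gave more calls over all genes (4472 and 4663, against 3886). PKP4, a plakophilin, was at -0.37 ± 0.11 (SE) and was also called lower with median scaling, with the authors' processed values and with probes detected on all 4 arrays. PERP, a membrane protein of desmosomes, rose from log2 12.26 and 12.28 to 13.14 and 13.18, by 0.89 ± 0.07 (SE). JUP, plakoglobin, rose by 0.55 ± 0.10, but its other 2 probes did not pass (0.50 and 0.17). Its call was lost without control 1, control 2 or mimic 1, with no filter on dim probes and with the mean of its probes. PLEC, plectin, which links filaments to hemidesmosomes and actin, rose by 0.46 ± 0.11. It lost its call without the same 3 arrays and with no filter on dim probes. DSP, desmoplakin, the main anchor of keratin at desmosomes, had a difference of -0.18 ± 0.08 and did not pass, nor did DSG2 (0.08 ± 0.07) or DSC2 (0.09 ± 0.11).

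**Figure D3:**
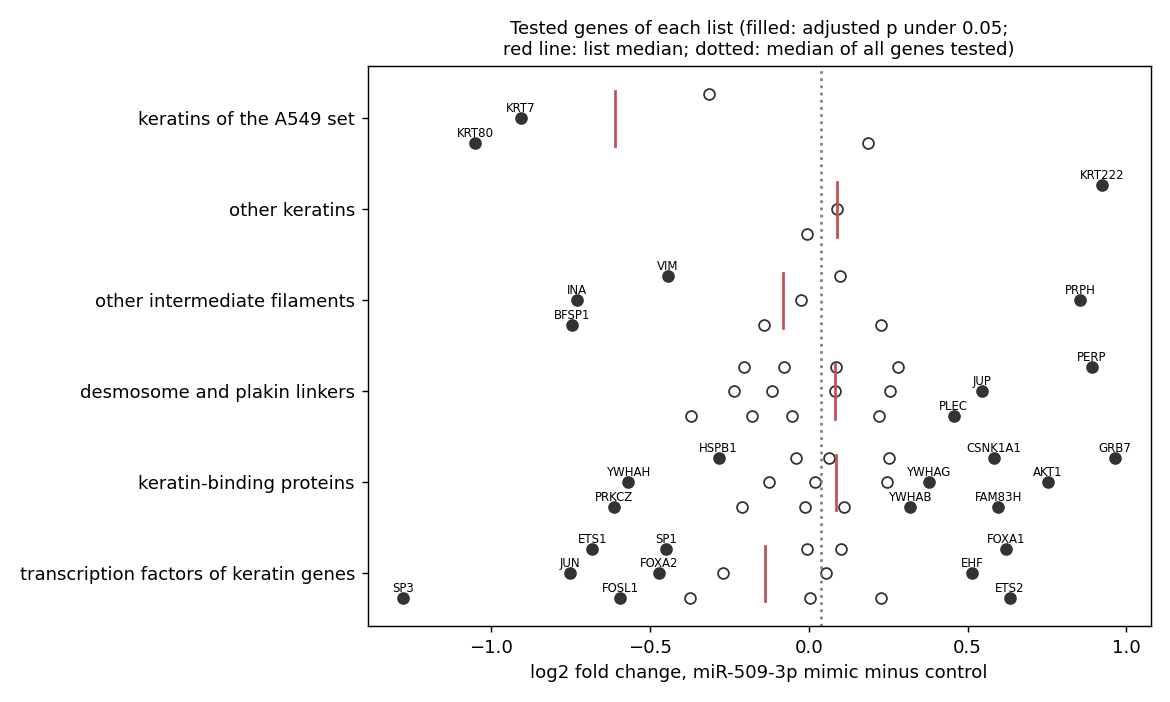
Log2 fold change (mimic minus control, horizontal axis) of every tested gene in 6 gene lists (vertical axis), filled and named where the adjusted p was under 0.05, with each list's median in red and the median of all genes tested dotted. KRT80 and KRT7 are at the left of their list, all 3 called desmosome and plakin genes are at the right of theirs, and the other lists hold calls on both sides or on 1 gene.

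Genes whose products bind or modify keratins split as well. Of 18 tested out of 22 listed, 6 rose, 3 fell and 9 did not pass, with a median of 0.09 (50.0% called, against 38.0% of all genes). Leaving out any 1 array gave fewer calls here, as it did over all genes, and each time more were higher than lower. GRB7, an adaptor of receptor kinases, rose by 0.96 ± 0.10 (SE) and the kinase gene AKT1 by 0.75 ± 0.07. A second AKT1 probe rose as well (by 0.71). The second GRB7 probe averaged log2 6.54 on the control arrays, under their lowest detected signals (6.83 and 6.73), so no fold is given for it. FAM83H, which brings casein kinase to keratin filaments, rose by 0.60 ± 0.09, a call lost without either mimic array. PRKCZ, an atypical protein kinase C, fell by 0.61 ± 0.08, as did its second probe (by 0.79).

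Transcription factors known to act on keratin genes were called in 9 of 16 tested cases out of 21 listed. In all 6 fell, 3 rose and 7 did not pass, with a median of -0.14 (56.2% called, against 38.0% of all genes). Leaving out any 1 array gave fewer calls here, as it did over all genes, and without mimic 2 more were higher than lower. SP3, a factor that binds GC-rich promoters, fell by 1.28 ± 0.17 (SE), from log2 11.07 and 10.98 to 9.51 and 9.99. A second SP3 probe fell by 1.17, and one more, near background, was at -0.06 and did not pass. JUN, a subunit of AP-1, fell by 0.75 ± 0.12. ETS1 fell by 0.68 ± 0.14, a call lost without either mimic array and with no filter on dim probes. Its second probe fell by 1.45, and ETS2 rose by 0.63 ± 0.08. The other called genes of the list went both ways. FOXA1 (0.62 ± 0.07) and EHF (0.51 ± 0.09) rose, while FOSL1 (-0.59 ± 0.09), FOXA2 (-0.47 ± 0.12) and SP1 (-0.45 ± 0.09) fell. Among those that did not pass were the epithelial factor genes ELF3 (0.05 ± 0.07) and KLF5 (-0.0041 ± 0.08) and the AP-2 gene TFAP2A (0.10 ± 0.08).

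Epithelial markers outside the keratins did not move together. EPCAM, the epithelial adhesion molecule, had a difference of 0.01 ± 0.09 (SE) and did not pass. CDH1, E-cadherin, fell by 0.29 ± 0.07. That call was lost on leaving out any 1 array, with median scaling, with no filter on dim probes and with the replicate number as a block. MUC1 rose by 0.47 ± 0.09, with a second probe (0.17) that did not pass. The MUC1 call was lost without control 2, mimic 1 or mimic 2, and with no filter on dim probes. Summed on the linear normalized scale, these 3 genes read 5781 and 5738 on the control arrays and 5203 and 5423 on the mimic arrays. With KRT7, KRT8 and KRT19 added, which make up most of the sum, the 6 tested of 8 epithelial markers read 50881 to 54249 and 40124 to 40753. Among leukocyte markers 1 of 5 was tested, CD14, at a summed level of 1900 to 2165 on the control arrays and 2750 to 2773 on the mimic arrays, whereas PTPRC, CD3E and LYZ did not reach the detection rule. The part of these markers in the keratin values was not tested.

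The genes with the pattern most like each called keratin were taken as those nearest in Euclidean distance over the 4 arrays, after centring each gene on its own mean. For KRT7 these were OPRL1, at a distance of 0.03 on the log2 scale, with a log2 fold change of -0.90 ± 0.07 (SE), and IQSEC1, at 0.04, with -0.93 ± 0.08. For KRT80 they were SLC3A2, at 0.04, with -1.02 ± 0.07, and INTS10, at 0.05, with -1.05 ± 0.08. With 4 arrays in 2 groups, such likeness says little beyond an equal difference between the groups.

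The falls of KRT7 and KRT80 did not depend on the settings tried. Across 14 alternatives the log2 fold change of KRT7 lay between -0.97 and -0.85 and that of KRT80 between -1.11 and -1.02, and both passed in all 14 (limma adjusted p up to 0.0286 and 0.0249, Benjamini-Hochberg). KRT19 lay between 0.12 and 0.23 and passed in 1.

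**Figure D4:**
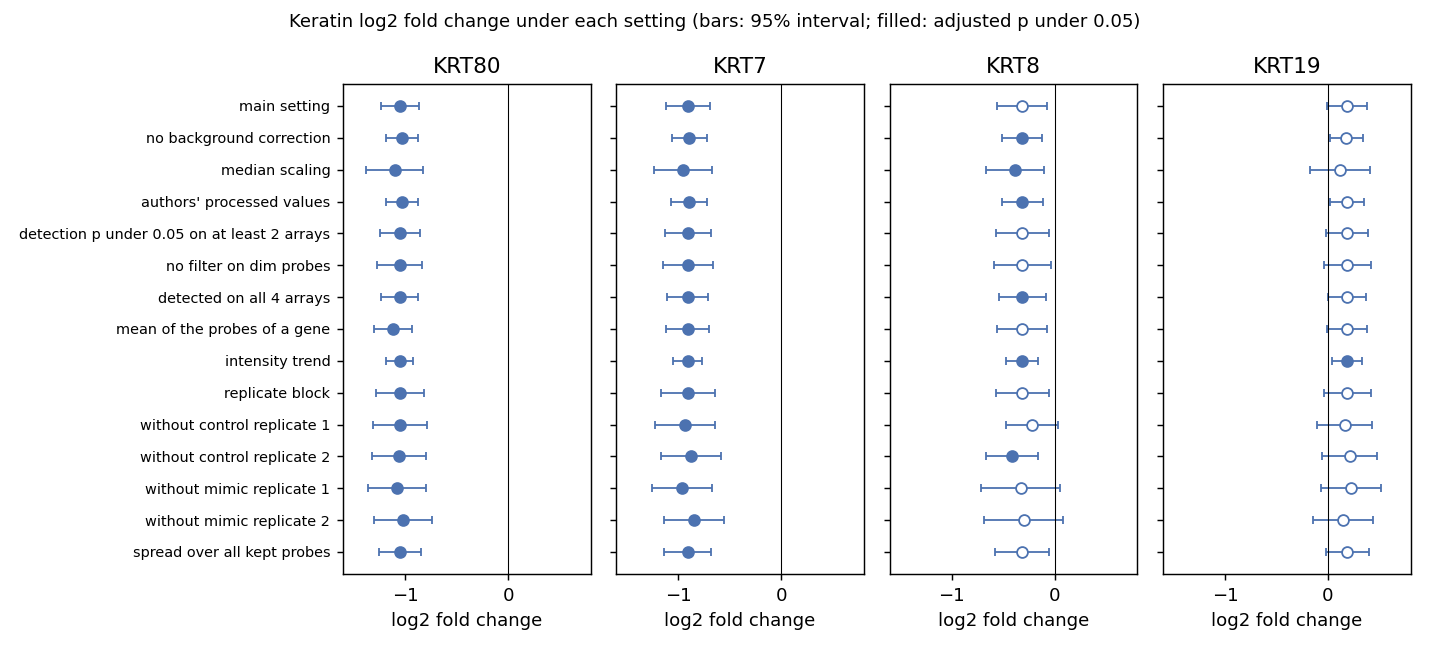
Log2 fold change (mimic minus control, horizontal axes) of KRT80, KRT7, KRT8 and KRT19 under the main setting and 14 alternatives (vertical axis), with 95% intervals and filled points where the adjusted p was under 0.05. KRT80 and KRT7 are filled in every line, KRT8 in 6 of the 14 alternatives and KRT19 in 1.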

How the data were processed

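The authors deposited linear probe intensity without normalization across arrays, and a detection p-value for each probe and array. The submitters' processing notes name GenomeStudio 2009.2. The authors also deposited processed log2 values for 19069 probes, with the same quantiles on each array. Their method was not given in the sources used here. Groups came from the labels.

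Intensities were normalized in R 4.3.3 with limma 3.58.1 (neqc: normexp background correction from the detection p-values, offset 16, quantile normalization, log2). Probes with detection p under 0.01 on at least 2 arrays were kept, 16561 in all. Names came from the platform annotation (1 gene for 30113 probes, several for 8, none for 17199), updated through RefSeq gene identifiers of GRCh38.p14 for 30074 probes. The brightest kept probe on average stood for each gene. Groups were compared with lmFit and eBayes over 10239 genes (2 residual and 2.65 prior degrees of freedom), with Benjamini-Hochberg adjustment and calls under 0.05. The number of arrays limits the precision. No slide or scan date was used, so batches were not tested.

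The members and gene lists were chosen with earlier results of these data known. Named genes are the members, other tested keratins, up to 4 called genes of each other list with the largest change, and the 2 genes nearest in pattern to each called member. The remaining called transcription factor genes are named too, and a few others as examples that did not pass. Alternatives were other background, scaling, filter, probe and variance choices, the authors' processed values, a replicate block and leaving out each array. Same-numbered arrays did not deviate together (r = -0.06 across genes). Figures were drawn with matplotlib 3.10.9.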

Additional observations from a re-analysis of the deposited data

How the results depend on the processing

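KRT7 and KRT80 kept their direction and call in all 14 alternatives. KRT8 kept its direction and passed without background correction (-0.31), with median scaling (-0.39), with the authors' processed values (-0.31), with probes detected on all 4 arrays (-0.31), with an intensity trend in the variance (-0.31) and without control 2; leaving out 1 array at a time gave -0.41 to -0.22. KRT19 passed with the intensity trend (0.19), which made 4 members called against 2. Over all genes the same trend gave 4663 calls against 3886. With the replicate block, KRT7 was at -0.91 (limma adjusted p = 0.00937, Benjamini-Hochberg), and the block changed no member's call, though it ended that of the marker CDH1; the labels give no shared batch for these numbers.

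Of the lists, other keratins had 2 calls with a detection limit of 0.05 and with no filter on dim probes, against 1. Desmosome and plakin genes had 5 without background correction, 5 with the intensity trend and 1 with no filter, against 3. Leaving out 1 array gave 1 to 3 calls there, 2 to 4 for other intermediate filaments, 5 to 6 for keratin-binding proteins, 5 to 8 for transcription factors and 1697 to 2908 over all genes, against 4, 9, 9 and 3886. Over all genes, no filter gave 2275 and a detection limit of 0.05 gave 3631. No background correction gave 4472 over all genes and the intensity trend 4663, so calls rose there too. Estimating the spread over all kept probes, an alternative chosen after seeing the data, gave 3524, and the same 2 members were called. The causes were not tested. A left-out array leaves a group with 1 array, which is assumed to vary like the other group. KRT81 gave no value, and KRT18 lies too near background for a change to be measured.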
